A study of Homo sapiens with 18 samples.

Results

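The genes described here encode the proteasome and its helpers: every gene row whose symbol is PSM, a letter from A to G and a number. Of 48 such symbols, 46 had a gene row in at least 1 of 3 tables, where they were 46 of 16424 gene rows (H460), 46 of 18140 (H2023) and 45 of 16910 (ABC-1). PSMB8 was not analysed in ABC-1, and PSMA8 and PSMB11, core subunits of testis and thymus, were not analysed here. By role, 14 of the 46 form the 20S core (PSMA1 to PSMA7 and PSMB1 to PSMB7), 3 are the immunoproteasome subunits PSMB8, PSMB9 and PSMB10, 17 form the 19S cap (PSMC1 to PSMC6 and 11 of the PSMD genes), 7 are assembly chaperones, and 5 are other activators or the core regulator PSMF1. Total RNA was sequenced from 3 human lines of lung cancer, treated for 24 h with CCS1477 at 5 µM or with DMSO, its solvent, giving 6 groups of 3 libraries. CCS1477 (inobrodib) binds the bromodomains of the histone acetyltransferases p300 and CBP. H460 is labelled a large cell carcinoma and H2023 a squamous carcinoma, and both are described as having active NRF2. ABC-1 is labelled an adenocarcinoma and is described as wildtype. Each group is 1 line with 1 treatment, with no engineered allele in its labels. With 1 wildtype line, NRF2 state and cell line cannot be told apart. The series text gives the concentration as 5 mM and the descriptions of the samples as 5 µM, which is used here. The labels do not say whether the 3 libraries of a group are separate cultures. The p-values thus measure how these libraries spread, which may be technical.

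The 20S core is a barrel of stacked rings. Its outer alpha rings gate the entrance, and its inner beta rings hold the proteolytic sites of PSMB5, PSMB6 and PSMB7. The 19S cap recognises ubiquitin chains, removes them and unfolds the protein with a ring of ATPases. In cells that see interferon, and constitutively in immune cells, PSMB8, PSMB9 and PSMB10 take the places of PSMB5, PSMB6 and PSMB7, which changes the peptides made for MHC class I. When proteasome activity runs short, the transcription factor NFE2L1 raises subunit genes together through antioxidant response elements, the sequence that its relative NRF2 also binds.

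Short promoter stretches are shown first for the immunoproteasome genes PSMB8 and PSMB10 and the PA28 activator genes. Stretches of some members that rose or fell in all 3 lines follow. They are shown because they carry the letters that interferon-responsive factors and NFE2L1-family factors are known to bind. Of the 48 symbols, 42 had a RefSeq promoter window (GRCh38.p14, 250 bases before to 50 after the gene start). The first set holds the core of an interferon-stimulated response element, GAAA, any 2 bases and GAAA, in capitals, or its reverse complement on the strand of the gene. It was found in 7 of 42 members (16.7%), namely PSMA4, PSMB4, PSMB8, PSMB10, PSME1, PSME2 and PSMG4, and in 4.38% of 27305 genes, both strands searched.
PSMB8: gatctgtggcTTTCGCTTTCacttcctcct
PSMB10: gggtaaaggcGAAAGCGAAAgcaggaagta
PSME2: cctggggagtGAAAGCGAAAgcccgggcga
PSME1: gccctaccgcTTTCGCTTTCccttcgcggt
These lie at chr6:32844032-32844061 (minus strand), chr16:67936852-67936881 (minus), chr14:24146619-24146648 (minus) and chr14:24136189-24136218 (plus). The matched letters were the same in all 4, read on 1 strand or the other. The chaperone gene PSMG4, not shown, held the same letters. The immunoproteasome gene PSMB9 held no match.

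The second set holds the core of an antioxidant response element, TGACNNNGC, in capitals, or its reverse complement. This was found in 15 of 42 members (35.7%) and in 16.1% of all 27305 genes, a gene being counted when any of its windows matched. The CCAAT box (CCAAT), common in subunit promoters, was found in 20 of 42 members (47.6%) and in 39.7% of all genes. The gamma-activated sequence core (TTCNNNGAA) was found in 8 members (19%) and in 9.38% of all genes. A match is only these letters within this window.
PSMD3: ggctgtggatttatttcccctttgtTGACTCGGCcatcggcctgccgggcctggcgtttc
PSME4: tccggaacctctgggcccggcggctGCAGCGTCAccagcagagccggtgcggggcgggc
PSMD5: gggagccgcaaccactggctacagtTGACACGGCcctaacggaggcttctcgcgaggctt
PSMG2: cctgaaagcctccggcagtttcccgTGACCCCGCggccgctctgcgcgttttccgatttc
These lie at chr17:39980745-39980804 (plus strand), chr2:53970994-53971052 (minus), chr9:120843022-120843081 (minus) and chr18:12658674-12658733 (plus). PSMD3 and PSME4 rose and PSMD5 and PSMG2 fell in all 3 lines. They were picked for display by these directions, so they do not show how members with this core moved. PSME2, not shown in this set, also holds the core and fell in all 3 lines. Counts over the 15 members are given below.

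Libraries held 26652284 to 33568167 reads in H460, 15352631 to 18261155 in H2023 and 14483979 to 17483292 in ABC-1, and the counting error at 1 CPM (reads scaled by the total of the library) was 17.3% to 26.3%. The 46 members took 0.565% to 0.606% of reads in H460 and H2023, and 0.502% to 0.522% in untreated and 0.574% to 0.591% in treated ABC-1. One H460 library, CCS1477 replicate 1, stood apart. Its mitochondrial share was 0.795%, against 1.77% to 2.06% in the other 5. Set against replicates 2 and 3, its mean squared difference over counting noise came to 32.1 and 35.8. Other replicate pairs in the series gave 2.73 to 7.02. The gap was smaller by the median ratio, at 4.27 and 5.42, where other pairs gave 1.59 to 2.44. Keratins KRT8 and KRT18 were abundant in all 3 lines (603 to 3225 CPM). EPCAM was at 0.659 CPM in H460. Of the squamous markers, TP63 was at 1.84 CPM in H2023, and KRT5, KRT6A, SOX2 and DSG3 were not analysed there. Untreated ABC-1 held SOX2 at 149 CPM, TP63 at 1.35 and NKX2-1 at 1.34. SOX2, listed as a squamous marker, was thus seen in the line labelled an adenocarcinoma and could not be compared with H2023. TP63 lay close between H2023 and ABC-1. The keratin gene KRT7 had 1573 CPM in untreated H2023 but 1.89 in untreated ABC-1. Of 9 markers of fibroblasts, leukocytes and endothelium, 3 (H460), 4 (H2023) and 2 (ABC-1) had a gene row, none of them at 0 reads in any group. Their summed level was 29.4 to 32.4 CPM in untreated and 8.00 to 9.50 in treated H460, where COL1A1, COL3A1 and CD14 all fell. It was 7.74 to 10.2 and then 7.31 to 10.1 CPM in H2023, and 9.25 to 11.1 and then 22.7 to 23.8 in ABC-1, where COL1A1 rose and VWF fell. The part of these genes in the results below was not tested.

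After CCS1477 the proteasome genes did not move as a block: some core, catalytic and chaperone genes fell in all lines, and many cap genes rose in ABC-1. In H460, 4 of 46 members were higher and 21 lower at an adjusted p under 0.05 (limma, Benjamini-Hochberg over all genes), beside 28.2% higher and 27.9% lower among 13516 genes tested. In H2023, 11 were higher and 17 lower, beside 28.6% and 31.9% of 14572. In ABC-1, 16 of 45 were higher and 10 lower, beside 33.5% and 32.6% of 13543. Counted by libraries that do not overlap, H460 had 5 members higher and 21 lower, beside 32.3% and 31.7% of genes, H2023 had 11 and 18, beside 31.2% and 34%, and ABC-1 had 16 and 13, beside 35.8% and 34.6%. Every listed member passed the filter of 1 CPM in 3 of 6 libraries. Members were lower in H460 more often than genes at large and higher less often. In H2023 both shares lay nearer to those of all genes, and in ABC-1 the share lower was below that of all genes. Scaling by library totals, in place of the authors' scaling, gave 9 higher and 19 lower in H460, 12 and 16 in H2023 and 25 and 9 in ABC-1. Calls of all genes moved upward too. In H460, 4636 genes were higher and 3063 lower, against 3811 and 3773 with the authors' scaling. The counts were 4784 and 4128 in H2023, against 4170 and 4654, and 5183 and 4005 in ABC-1, against 4535 and 4414. Without H460 CCS1477 replicate 1, H460 had 3 higher and 23 lower, with medians of -0.18 in the core, -0.053 in the cap and -0.81 in the immunoproteasome genes (-0.17, -0.048 and -0.77 with it). The core median was -0.074 without CCS1477 replicate 2, -0.11 without CCS1477 replicate 3, -0.094 when scaled by library totals and -0.084 with transcript rows added. In H2023 the number higher fell to between 6 and 7 when DMSO replicate 1, CCS1477 replicate 2 or CCS1477 replicate 3 was left out.

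The median member changed by -0.12 (H460), -0.092 (H2023) and 0.051 (ABC-1) on the log2 scale, where the medians of all genes were 0.00092, -0.0089 and 0.014. Members spread less than genes at large, with an SD of log2 changes of 0.27, 0.28 and 0.36 across members and 0.63, 0.64 and 0.76 across all genes tested. In all, 3 members were higher in all 3 lines, the ATPase-ring partner PSMD2, the lid subunit PSMD3 and the nuclear activator PSME4. Another 8 were lower in all 3: PSMA3, PSMB6, PSMB10, PSMC3, PSMD5, PSME2, PSMG2 and PSMG3. PSMA1 and PSMC4 were lower in H460 and higher in ABC-1, and PSMA1 and PSMA2 were lower in H2023 and higher in ABC-1. No member was higher in H460 or H2023 and lower in ABC-1. The share of all genes called alike or opposite across lines was not computed. These counts therefore do not show whether members differ from genes at large. RNA sequencing of bulk cells gives shares of RNA, so that fewer cells of a type and less RNA per cell cannot be told apart.

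**Figure D1:**
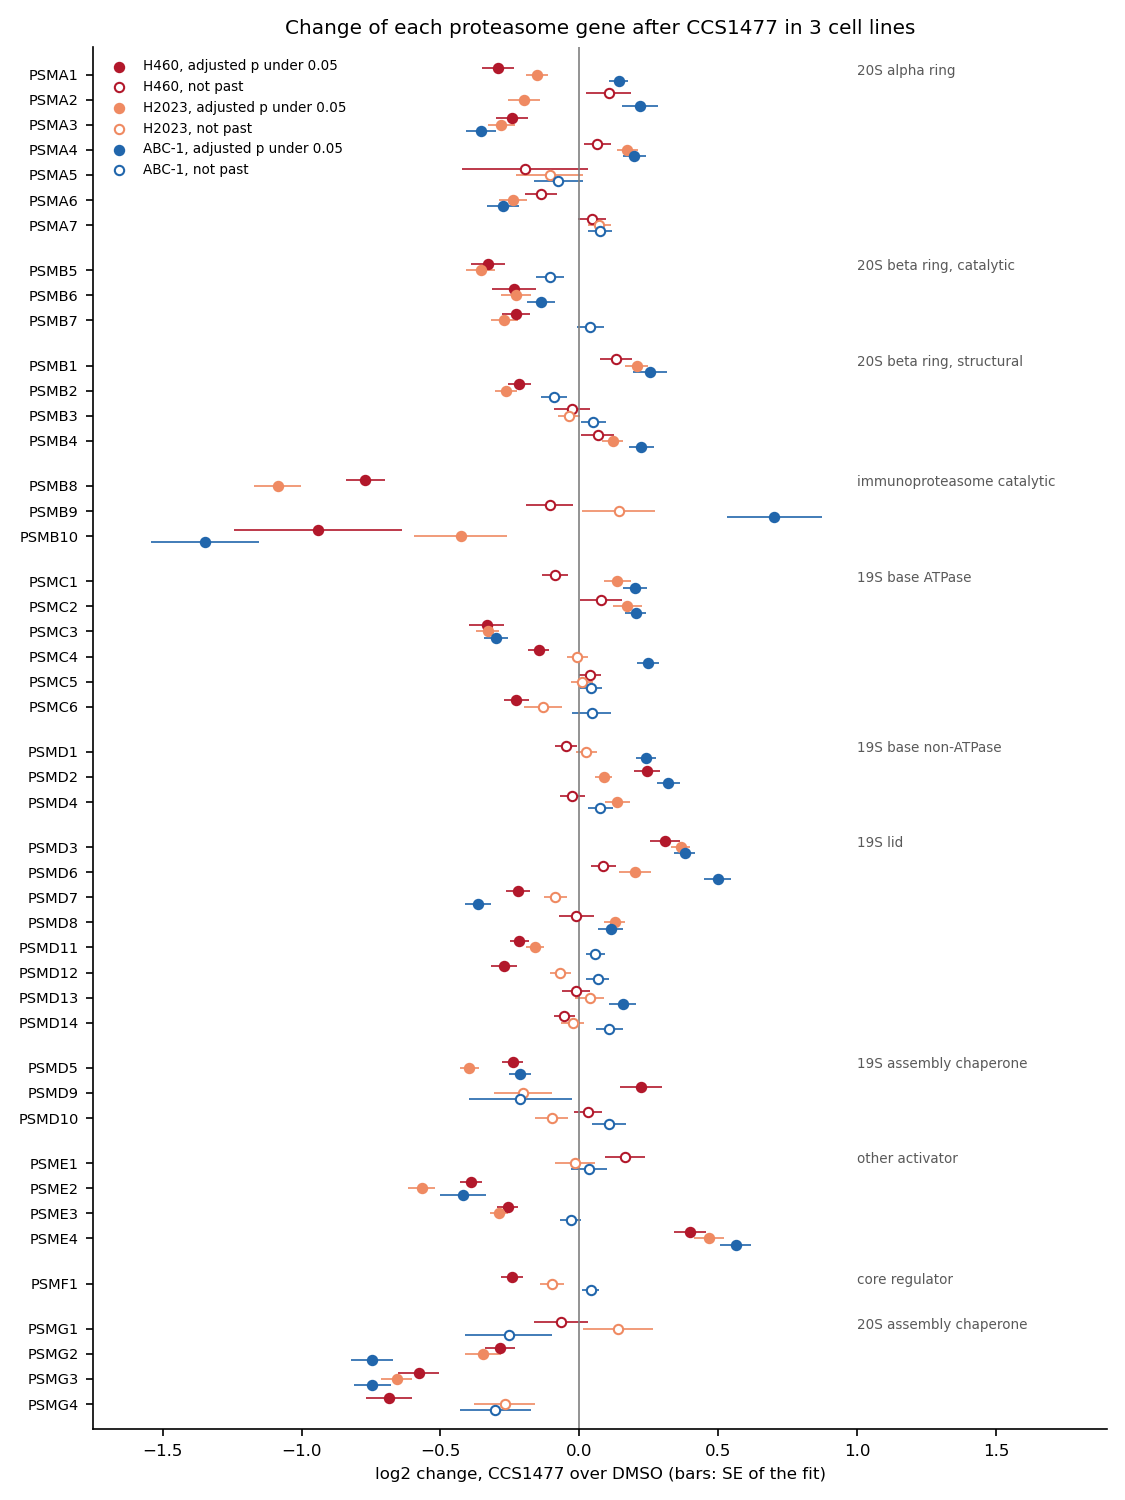
Log2 change with CCS1477 (horizontal axis) of each of 46 proteasome genes (vertical axis, by role) in H460, H2023 and ABC-1, 3 libraries against 3, with bars for the SE of the fit and filled points for an adjusted p under 0.05. PSMD3 and PSME4 lie to the right of 0 in all 3 lines, PSMG2 and PSMG3 to the left, and the ABC-1 points of most cap genes lie to the right of those of the other lines.

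Summed over genes in normalised reads (the deposited values with the logarithm undone), core, cap and helper genes took different courses. The core sum in H2023 was 34229, 33885 and 34544 in DMSO and 30233, 32590.0 and 33042 with CCS1477, -6.62% and without overlap. The immunoproteasome sum changed by -34.1% in H460 and -38.5% in H2023, without overlap. PSMB8 made up most of it, at 30.6 of 41.3 CPM in untreated H460 and 22.7 of 33.1 in untreated H2023. In ABC-1, where PSMB8 was not analysed, the immunoproteasome sum changed by -5.62%, with overlap. With transcript rows added, this sum went from 59.4 to 45.3 CPM (H460), 40.8 to 27.3 (H2023) and 10.4 to 11.1 (ABC-1). The cap sum in ABC-1 was 41364, 43060.0 and 39993 and then 47434, 46079 and 47710.0, a rise of 13.5% without overlap. The chaperone sums changed by -14.7%, -22.0% and -21.9% in the order H460, H2023, ABC-1, each without overlap. The cap sum changed by -1.64% in H460, where libraries overlapped, and by 2.96% in H2023, where they did not. The core sum changed by -5.82% in H460 and 2.99% in ABC-1, with overlap in both. Activators with PSMF1 changed by -5.21%, -5.95% and 13.7%. On CPM, which divides by library totals, the sum over all members changed in the same order by 0.505%, 0.750% and 13.5%, against -4.45%, -2.83% and 8.89% in normalised reads. The sign of the total in H460 and H2023 therefore turned with the scaling, while the rise in ABC-1 and the fall of the chaperones did not.

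**Figure D2:**
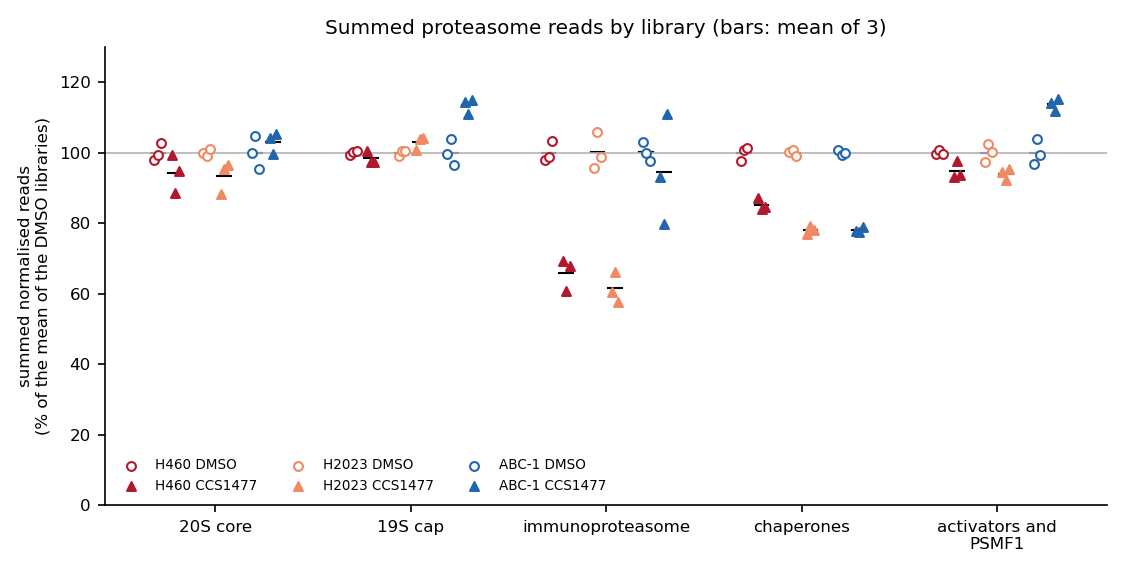
Summed normalised reads of each class (horizontal axis) in each library, as a percentage of the mean of the DMSO libraries of the same line (vertical axis, starting at 0), with circles for DMSO, triangles for CCS1477 and bars for means of 3. Chaperone sums lie below their DMSO libraries in all 3 lines, and the cap sum lies above them in ABC-1.

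Of the 7 alpha ring genes, 2 fell in H460, 4 fell and 1 rose in H2023, and 2 fell and 3 rose in ABC-1. Genes at large were lower in 27.9% (H460), 31.9% (H2023) and 32.6% (ABC-1) and higher in 28.2%, 28.6% and 33.5%. PSMA3 fell in every line. In ABC-1 it had 1347, 1504 and 1338 normalised reads in DMSO and 1114, 1036 and 1122 with CCS1477, and its log2 change was -0.24 (H460, adjusted p = 0.00725), -0.28 (H2023, adjusted p = 0.000436) and -0.35 (ABC-1, adjusted p = 0.000147). PSMA1, at chr11:14504874-14643635 (GRCh38), went in opposite directions. In H460 its normalised reads were 4419, 4512 and 4612 in DMSO and 3405, 3707 and 3965 with CCS1477, a log2 change of -0.29 (SE 0.057, adjusted p = 0.00294). In ABC-1 they were 1651, 1624 and 1639.7 and then 1812, 1826 and 1787, a change of 0.14 (SE 0.035, adjusted p = 0.0036), and in H2023 the change was -0.15 (adjusted p = 0.00643). Treated and untreated libraries did not overlap in any line.

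PSMA2 rose in ABC-1 by 0.22 (adjusted p = 0.0101) and fell in H2023, -0.20 (adjusted p = 0.0123), and in H460 its libraries overlapped at 0.11 (adjusted p = 0.292). PSMA4 rose in H2023, 0.17, and in ABC-1, 0.20, and PSMA6 fell in the same lines, -0.24 and -0.27. PSMA6 in H460, at -0.14 (adjusted p = 0.0751), passed the test without CCS1477 replicate 1 (adjusted p = 0.0478). PSMA7 did not pass in any line. PSMA5 did not pass either, but 76.6% to 83.5% of its untreated reads stood on transcript rows, apart from the gene row. With these added, its changes were 0.015 (adjusted p = 0.806) in H460, -0.16 (adjusted p = 0.00609) in H2023 and 0.12 (adjusted p = 0.0493) in ABC-1. Without H460 CCS1477 replicate 1 the gene row of PSMA5 fell in H460 by 0.49 (adjusted p = 0.00445). PSMA2 and PSMA6 have 3 and 4 processed pseudogenes by name, and how the counting divided reads between such copies is not given in the sources used here.

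The catalytic genes PSMB5, PSMB6 and PSMB7 all fell in both NRF2-activated lines. PSMB5 encodes the chymotrypsin-like site that bortezomib blocks. In H460 it had 6217, 6468 and 6649 normalised reads in DMSO and 5589, 4764 and 5068 with CCS1477. In H2023 it had 2244, 2309 and 2354 and then 1658, 1887 and 1859. All treated libraries of both lines lay below all untreated ones, with log2 changes of -0.33 (SE 0.061, adjusted p = 0.00219) and -0.36 (SE 0.051, adjusted p = 0.000119). In ABC-1 PSMB5 went from 901, 944 and 851 to 849, 827 and 827, without overlap but at -0.11 (adjusted p = 0.0797). PSMB7, the trypsin-like site, changed by -0.23 (H460, adjusted p = 0.00548), -0.27 (H2023, adjusted p = 0.000628) and 0.039 (ABC-1, adjusted p = 0.488).

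PSMB6, the caspase-like site, changed by -0.24 (H460, adjusted p = 0.0347), -0.23 (H2023, adjusted p = 0.00306) and -0.14 (ABC-1, adjusted p = 0.0312). Its H460 libraries overlapped, since CCS1477 replicate 1 had 4156 normalised reads against 3345 and 3441 in the other treated libraries, and 4099, 4350.2 and 4383 in DMSO. That call held under 9 of 16 alternatives in H460 and 10 of 16 in ABC-1. Of the 4 beta genes without a proteolytic site, PSMB1 and PSMB4 rose in H2023 (0.21 and 0.12) and in ABC-1 (0.25 and 0.22). PSMB2 fell in H2023 (-0.26, adjusted p = 0.000132) and H460 (-0.22, adjusted p = 0.00248) and was at -0.091 (adjusted p = 0.103) in ABC-1. PSMB3 passed in none. Within 1 ring, PSMB1 and PSMB5 took opposite courses in H2023, at 2653 normalised reads in DMSO and 3063 with CCS1477 against 2303 and 1801 (means of 3).

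The immunoproteasome genes did not move together. PSMB8, which replaces PSMB5, fell most clearly. It lies at chr6:32840717-32844703 in the MHC region, where it overlaps PSMB9 on the opposite strand and the antisense gene PSMB8-AS1. Whether the counting used strand is not given in the sources used here, so reads in the overlap cannot be assigned with certainty. In H460 PSMB8 had 928, 925 and 969 normalised reads in DMSO and 581, 499.5 and 571 with CCS1477, a change of -41.5%. In H2023 it had 353, 393 and 370.1 and then 169.9, 189.6 and 161, a change of -53.4%. Every treated library lay far below every untreated one, and the log2 changes were -0.77 (SE 0.070, adjusted p = 5.21e-05) and -1.09 (SE 0.085, adjusted p = 1.32e-06).

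PSMB9, which replaces PSMB6, rose in ABC-1 alone among the calls. There it had 66.8, 59.9 and 45.3 normalised reads in DMSO and 93.5, 82.8 and 109.5 with CCS1477, 0.70 (SE 0.170, adjusted p = 0.00351). Its libraries overlapped in H2023 (0.14, adjusted p = 0.376) and H460 (-0.11, adjusted p = 0.309). The difference of the response was past the test between ABC-1 and H460, -0.81 (SE 0.194, adjusted p = 0.00236) for H460 minus ABC-1, and between ABC-1 and H2023, -0.56 (SE 0.194, adjusted p = 0.0286). The latter held under 15 of 21 alternatives. TAP1, a peptide transporter gene given here because it overlaps PSMB9 on the opposite strand, changed by 0.024 (H460, adjusted p = 0.819), -0.12 (H2023, adjusted p = 0.0966) and 0.53 (ABC-1, adjusted p = 0.000259).

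PSMB10, which replaces PSMB7, was lower in all 3 lines on its gene row. In ABC-1 it had 64.8, 68.1 and 79.8 normalised reads in DMSO and 25.3, 19.6 and 32.4 with CCS1477, -1.35 (SE 0.195, adjusted p = 9.02e-05). In H460 it had 36.7, 54.0 and 39.2 and then 30.4, 21.0 and 12.8, -0.94 (adjusted p = 0.0285), and in H2023 -0.43 (adjusted p = 0.0459), with overlap. These counts are low, and 92.8% (H460), 63.1% (H2023) and 34.1% (ABC-1) of its untreated reads stood on transcript rows. With those reads added, PSMB10 still fell, by a log2 change of -0.25 (adjusted p = 0.0364), -0.39 (adjusted p = 0.00196) and -0.54 (adjusted p = 0.00203). On the gene row alone, the call held under 11 of 15 alternatives in H460 and 7 of 16 in H2023.

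The share of each catalytic position taken by the immunoproteasome gene was computed from reads per kb of transcript. Per kb, untreated PSMB8 stood at 27.2 CPM in H460 against 162 for PSMB5, and at 20.2 against 109 in H2023. The PSMB8 share of this pair was 14.4% ± 0.263 (SD, n = 3) in untreated and 11.0% ± 0.435 in treated H460. In H2023 it was 15.7% ± 0.605 and then 9.99% ± 0.823, and neither line had overlap. PSMB8 thus lost more than PSMB5, which itself fell. The PSMB9 share of PSMB9 plus PSMB6 was higher without overlap in H2023, at 4.67% ± 0.501 before and 5.95% ± 0.334 after, and in ABC-1, at 3.17% ± 0.582 and 5.66% ± 0.724, and in H460 the libraries overlapped, 6.76% ± 0.310 and 7.36% ± 0.754. With transcript rows added, the PSMB10 share of PSMB10 plus PSMB7 overlapped in H460 (7.75% ± 0.727 and 7.63% ± 0.652) and H2023 (4.03% ± 0.339 and 3.71% ± 0.237). On gene rows alone the H460 libraries did not overlap (0.608% ± 0.170 and 0.348% ± 0.137). In ABC-1 the share with transcript rows went from 4.10% ± 0.376 to 2.75% ± 0.205 without overlap. Transcript shares are not shares of assembled particles, which were not measured.

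**Figure D3:**
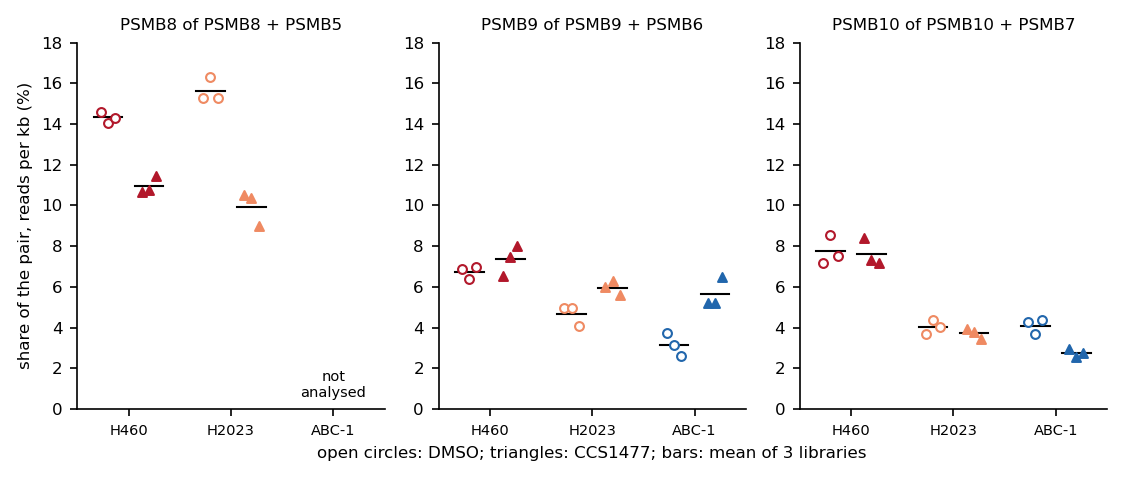
Share of each catalytic pair taken by the immunoproteasome gene (vertical axis, percent of reads per kb, transcript rows added) in each library of H460, H2023 and ABC-1 (horizontal axis), with circles for DMSO, triangles for CCS1477 and bars for means of 3. The PSMB8 share lies lower with CCS1477 in both lines analysed, the PSMB9 share lies higher in H2023 and ABC-1, and the PSMB10 share lies lower in ABC-1.

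Of 17 cap genes, 2 rose and 6 fell in H460, 7 rose and 2 fell in H2023, and 9 rose and 2 fell in ABC-1. The background was 28.2% higher and 27.9% lower in H460, 28.6% and 31.9% in H2023, and 33.5% and 32.6% in ABC-1. The cap count lower in H460 lies near that share. The median cap change was -0.048 (H460), 0.025 (H2023) and 0.11 (ABC-1), and the H460 median became 0.025 when scaled by library totals. Among the 6 ATPases, which unfold substrates, PSMC3 fell by about the same amount in each line, -0.33 (H460, adjusted p = 0.00262), -0.33 (H2023, adjusted p = 5.48e-05) and -0.30 (ABC-1, adjusted p = 9.69e-05). PSMC4 rose in ABC-1, from 2281, 2270.4 and 2136 normalised reads to 2721, 2555 and 2669, 0.25 (SE 0.040, adjusted p = 0.000221). In H460 it went the other way, from 3867, 3682 and 3835 to 3424, 3379 and 3482, -0.15 (SE 0.038, adjusted p = 0.0117), a call lost when scaled by library totals (-0.073, adjusted p = 0.135). Libraries did not overlap in these 2 lines and overlapped in H2023 (-0.007, adjusted p = 0.891). PSMC1 and PSMC2 rose in H2023 (0.14 and 0.17) and ABC-1 (0.20 and 0.20), PSMC6 fell in H460 (-0.23, adjusted p = 0.00328), and PSMC5 passed in none. PSMC1 has 13 processed pseudogenes by name.

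Of the 3 other genes of the base, PSMD2, a large scaffold that docks ubiquitin receptors, rose in all 3 lines: 0.24 (H460, adjusted p = 0.00273), 0.088 (H2023, adjusted p = 0.0287) and 0.32 (ABC-1, adjusted p = 4.2e-05). In ABC-1 its normalised reads were 11771, 12385 and 11299 in DMSO and 14837, 14209.8 and 15195 with CCS1477. PSMD1, the second scaffold, rose in ABC-1 from 2546, 2725 and 2593 to 3074, 3065 and 3153, 0.24 (SE 0.037, adjusted p = 0.000136), and overlapped in H2023 (0.025, adjusted p = 0.586) and H460 (-0.048, adjusted p = 0.34). PSMD4, a ubiquitin receptor, rose in H2023 (0.14, adjusted p = 0.0209) and was at -0.025 (adjusted p = 0.657) in H460 and 0.075 (adjusted p = 0.165) in ABC-1.

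The lid holds the deubiquitinase PSMD14 and its scaffold. PSMD3, at chr17:39980797-39997960, rose in all 3 lines. Its normalised reads were 6704, 6865 and 6720.4 in DMSO and 9010.3, 8358 and 7789.7 with CCS1477 in H460. They were 3784, 3933 and 3871 and then 5033, 5019.6 and 4873 in H2023. In ABC-1 they were 2649.9, 2771 and 2566 and then 3444, 3444 and 3495. Treated libraries lay above untreated ones in each line, by 0.31 (SE 0.054, adjusted p = 0.00172), 0.36 (SE 0.033, adjusted p = 3.85e-06) and 0.38 (SE 0.037, adjusted p = 3.64e-06) on the log2 scale. PSMD6 rose more in ABC-1, from 850.4, 787 and 847 to 1215, 1119 and 1179, 0.50 (SE 0.050, adjusted p = 4.54e-06), than in H2023, 0.20 (adjusted p = 0.0105), the difference being -0.30 (SE 0.075, adjusted p = 0.00416), and in H460 it was at 0.087 (adjusted p = 0.146). PSMD6 overlaps the antisense genes PSMD6-AS1 and PSMD6-AS2.

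PSMD7, the partner of PSMD14 in the deubiquitinase, fell in H460 (-0.22, adjusted p = 0.00301) and ABC-1. In ABC-1 it went from 1586, 1675 and 1493 normalised reads to 1207, 1213 and 1264, -0.37 (SE 0.048, adjusted p = 4.05e-05), and in H2023 it was at -0.086 (adjusted p = 0.0937). PSMD14 itself passed in no line, with changes of -0.053 (H460), -0.023 (H2023) and 0.11 (ABC-1). PSMD11 fell in H2023 (-0.16, adjusted p = 0.00143) and H460 (-0.22, adjusted p = 0.00104), and PSMD12 fell in H460 alone among the calls, from 5163, 4989 and 4814 to 3946, 4251 and 4205, -0.27 (SE 0.046, adjusted p = 0.00132). In ABC-1 these 2 genes were at 0.057 (adjusted p = 0.167) and 0.066 (adjusted p = 0.176). PSMD8 rose in H2023 (0.13, adjusted p = 0.0144) and ABC-1 (0.11, adjusted p = 0.0477, with overlap), and PSMD13 rose in ABC-1 (0.16, adjusted p = 0.0136).

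Assembly chaperones hold part-built rings together and leave the finished particle. Among the 4 of the core, PSMG3, at chr7:1567330-1571005, fell in every line. It had 1542, 1647 and 1624 normalised reads in DMSO and 1200.3, 1017 and 1009.5 with CCS1477 in H460. It had 1204, 1125 and 1262 and then 741, 731 and 799 in H2023. In ABC-1 it had 876, 786 and 766 and then 447, 489 and 506. The mean changed by -33.0%, -36.8% and -40.6%, and treated libraries never overlapped untreated ones, with log2 changes of -0.58 (SE 0.073, adjusted p = 0.000285), -0.66 (SE 0.056, adjusted p = 2.27e-06) and -0.75 (SE 0.067, adjusted p = 1.83e-06). The antisense gene PSMG3-AS1 overlaps it. PSMG4, the partner of PSMG3 in a dimer under the alpha ring, fell in H460, from 514, 487 and 530.1 to 350.0, 297 and 303, -0.69 (SE 0.084, adjusted p = 0.000243), and was at -0.27 (adjusted p = 0.0557) in H2023 and -0.30 (adjusted p = 0.0564) in ABC-1.

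PSMG2, which pairs with PSMG1, fell most in ABC-1. There it had 386, 437 and 403 normalised reads in DMSO and 227, 255 and 244 with CCS1477, -0.75 (SE 0.076, adjusted p = 5.45e-06), against -0.29 (adjusted p = 0.00228) in H460 and -0.35 (adjusted p = 0.000838) in H2023. The response in H460 minus that in ABC-1 was 0.46 (SE 0.086, adjusted p = 0.000288), and that in H2023 minus ABC-1 was 0.40 (SE 0.086, adjusted p = 0.00119). PSMG2 overlaps SPIRE1 and CEP76 on the opposite strand. PSMG1 passed in none. Among the chaperones of the cap, PSMD5 fell in every line, -0.24 (H460, adjusted p = 0.000794), -0.40 (H2023, adjusted p = 3.04e-06) and -0.21 (ABC-1, adjusted p = 0.000613). In H2023, where it fell most, its normalised reads were 2357, 2394 and 2321 in DMSO and 1779.8, 1815 and 1777 with CCS1477. PSMD10 passed in none. PSMD9 rose in H460 by 0.22 (adjusted p = 0.0342), a call lost without CCS1477 replicate 1 (0.18, adjusted p = 0.0797). With transcript rows added, which hold 66.2% of its untreated reads, it was 0.31 (adjusted p = 0.000854).

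Of the activators that can take the place of the cap, PSME4 (PA200), a nuclear activator encoded at chr2:53864067-53970840, rose in all 3 lines. Its normalised reads were 3673, 3847 and 3486 in DMSO and 4530.4, 5140.4 and 4845 with CCS1477 in H460. In H2023 they were 1662, 1873 and 1672 and then 2423, 2273 and 2508. In ABC-1 they were 3089, 3588 and 3568 and then 5036, 4861 and 5214. Treated libraries lay above untreated ones in each line, by 31.9%, 38.3% and 47.5% in the mean, with log2 changes of 0.40 (SE 0.058, adjusted p = 0.000598), 0.47 (SE 0.054, adjusted p = 2.54e-05) and 0.56 (SE 0.055, adjusted p = 4.13e-06). The calls were the same with transcript rows added.

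PSME1 and PSME2 encode the chains of PA28, the interferon-induced activator, and these genes did not move alike. PSME2 fell in every line. In H2023 it had 946, 1029 and 984 normalised reads in DMSO and 682, 649 and 661 with CCS1477, -0.57 (SE 0.049, adjusted p = 2.7e-06). Its change was -0.39 (adjusted p = 8.24e-05) in H460 and -0.42 (adjusted p = 0.000857) in ABC-1, without overlap. PSME1 passed in no line, at 0.16 (H460, adjusted p = 0.0895), -0.015 (H2023, adjusted p = 0.873) and 0.036 (ABC-1, adjusted p = 0.642). PSME3, the nuclear relative of PA28, fell in H2023 (-0.29, adjusted p = 2.01e-05) and H460 (-0.26, adjusted p = 0.000709) and overlapped in ABC-1 (-0.031, adjusted p = 0.489). PSMF1 (PI31) fell in H460, from 3589, 3404 and 3417 to 2908, 2975 and 2914, -0.24 (SE 0.039, adjusted p = 0.00106), and was at -0.098 (adjusted p = 0.075) in H2023 and 0.041 (adjusted p = 0.279) in ABC-1.

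The size of the response was compared between lines in 1 model over 18 libraries, for the 45 members in all 3 tables. Against ABC-1, the members in H460 had 1 higher and 14 lower changes past the test, beside 24.3% and 21.9% of 13647 genes, and those in H2023 had 3 higher and 15 lower, beside 19.3% and 21.4%. Between H460 and H2023, 1 was higher and 3 were lower, beside 16.5% and 10.6%. Without H460 CCS1477 replicate 1, H460 minus ABC-1 gave 1 higher and 21 lower. The comparisons with ABC-1 share its libraries. The changes of cap genes in H460 lay below those in ABC-1 for 16 of 17, 8 of them past the test and none in the other direction, and in H2023 for 14 of 17, with 5 past the test and 1 in the other direction. For the core, 12 of 14 lay below ABC-1 in each line, with 3 and 5 past the test.

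Among the cap genes, the largest differences for H460 minus ABC-1 were PSMD6 at -0.41 (SE 0.075, adjusted p = 0.000233), PSMC4 at -0.39 (SE 0.054, adjusted p = 1.07e-05) and PSMD12 at -0.34 (SE 0.056, adjusted p = 8.85e-05). PSMC4 also differed in H2023 minus ABC-1, -0.26 (SE 0.054, adjusted p = 0.000988). PSMD11 and PSMD1 differed in both, at -0.27 (SE 0.041, adjusted p = 3.19e-05) and -0.29 (SE 0.051, adjusted p = 0.000166) for H460 and -0.22 (SE 0.041, adjusted p = 0.000387) and -0.22 (SE 0.051, adjusted p = 0.00257) for H2023. In the core, PSMA1 differed most for H460, -0.43 (SE 0.063, adjusted p = 1.96e-05), and PSMA2 for H2023, -0.42 (SE 0.113, adjusted p = 0.00638). PSMA1 also differed for H2023, -0.29 (SE 0.063, adjusted p = 0.00106). PSMB5 and PSMB7 differed for both lines, at -0.22 and -0.27 for H460 and -0.25 and -0.31 for H2023, the PSMB5 calls being lost under some alternatives (14 of 21 and 19 of 21 kept). Between the NRF2-activated lines, PSMD5 fell less in H460 than in H2023, 0.16 (SE 0.041, adjusted p = 0.00908), the only one of 4 calls kept under all 21 alternatives.

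The members whose windows hold the antioxidant response element core did not share a direction. Beside them, 28.2% of all genes were higher and 27.9% lower in H460, 28.6% and 31.9% in H2023, and 33.5% and 32.6% in ABC-1, and several of the counts lie near these shares. Of 15, 3 rose and 5 fell in H460, 3 rose and 3 fell in H2023, and 6 rose and 3 fell in ABC-1. Of those with the interferon-stimulated response element core, none of 7 rose and 4 fell in H460, 2 rose and 3 fell in H2023, and 2 of 6 rose and 2 fell in ABC-1. Of those with the gamma-activated sequence core, 2 of 7 rose and 4 fell in H460 and in H2023, and 4 of 6 rose and none fell in ABC-1. The windows with a CCAAT box held 19 tested members, of which 1, 5 and 7 rose and 6, 6 and 3 fell in the 3 lines.

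Genes that work with the proteasome but lack a PSM symbol were mixed. The shares of all genes called were 28.2% higher and 27.9% lower (H460), 28.6% and 31.9% (H2023) and 33.5% and 32.6% (ABC-1). Of 13, 2 rose and 5 fell in H460, 3 rose and 5 fell in H2023, and 5 rose and 4 fell in ABC-1, with medians of -0.16, -0.073 and 0.029. UCHL5, a deubiquitinase of the cap, fell in all 3 lines, -0.76 (H460, adjusted p = 1.93e-05), -0.52 (H2023, adjusted p = 9.69e-06) and -0.54 (ABC-1, adjusted p = 1.81e-05). Its docking site on the cap, ADRM1, rose in ABC-1 (0.51, adjusted p = 1.77e-07) and H2023 (0.16, adjusted p = 0.00438) and was at 0.12 (adjusted p = 0.0795) in H460. ZFAND5, a proteasome activator, rose in H460 and ABC-1 and fell in H2023, 0.22 (H460), -0.23 (H2023) and 0.37 (ABC-1). AKIRIN2, which brings proteasomes into the nucleus, fell in H2023 (-0.14, adjusted p = 0.0281) and H460 (-0.41, adjusted p = 0.000608) and was at -0.15 (adjusted p = 0.0651) in ABC-1.

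The pathway that controls subunit genes through NFE2L1 had 16 of 17 genes tested, of which 3 rose and 4 fell in H460, 7 rose and 3 fell in H2023, and 10 rose and 2 fell in ABC-1. All genes were 28.2% higher and 27.9% lower in H460, 28.6% and 31.9% in H2023, and 33.5% and 32.6% in ABC-1. The H460 counts lie near or below the background, and in ABC-1 more of the list rose than the 33.5% of all genes. NFE2L1 itself rose in H2023 (0.30, adjusted p = 2.02e-05) and ABC-1 (0.46, adjusted p = 8.29e-07) and was at -0.094 (adjusted p = 0.113) in H460. VCP, the ATPase that extracts NFE2L1 from the endoplasmic reticulum, rose in all 3, 0.72 (H460, adjusted p = 8.17e-05), 0.59 (H2023, adjusted p = 2.63e-07) and 0.60 (ABC-1, adjusted p = 1.54e-06). DDI2, the protease that activates NFE2L1, fell in all 3, -0.21 (H460, adjusted p = 0.0061), -0.23 (H2023, adjusted p = 0.000928) and -0.68 (ABC-1, adjusted p = 1.84e-07). MAFK, a DNA-binding partner, fell in H460 and H2023 and rose in ABC-1, -0.58 (H460), -0.53 (H2023) and 0.36 (ABC-1). Of 16 genes of ubiquitin, its carriers and its E1 and E2 enzymes, 3 rose and 4 fell in H460, 6 and 4 in H2023, and 7 and 5 in ABC-1. Several of these counts, such as 4 lower in H460 and 5 lower in ABC-1, lie near the same shares of all genes. The ubiquitin gene UBB rose in each line, 0.40 (H460), 0.47 (H2023) and 0.36 (ABC-1), UBE2K fell in each, -0.60 (H460), -0.64 (H2023) and -0.28 (ABC-1), and the E1 gene UBA1 rose in ABC-1 (0.44, adjusted p = 1.9e-06) and H2023 (0.11, adjusted p = 0.0309) and was at 0.13 (adjusted p = 0.0895) in H460.

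Of the interferon and MHC class I genes that work with the immunoproteasome, 9 of 20 rose and 5 fell in H460, 7 of 20 rose and 4 fell in H2023, and 11 of 17 rose and 4 fell in ABC-1, with medians of 0.13, 0.10 and 0.47. Among all genes, 28.2%, 28.6% and 33.5% were higher and 27.9%, 31.9% and 32.6% lower, so that the number higher in H2023 lies near the background. The light chain gene B2M rose in all 3 lines, 0.23 (H460), 0.44 (H2023) and 0.42 (ABC-1), as did HLA-E, 0.51 (H460), 0.79 (H2023) and 0.60 (ABC-1). The kinase gene JAK1 rose in H460 (0.52, adjusted p = 1.44e-05) and ABC-1 (1.14, adjusted p = 8.65e-10). The peptide-trimming enzyme ERAP1 fell in all 3, -0.52 (H460), -0.62 (H2023) and -0.65 (ABC-1), and TAP2 fell in H2023 (-0.45, adjusted p = 1.84e-05) and H460 (-0.54, adjusted p = 0.000239).

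Untreated levels were set beside NRF2 state, as CPM because each table was scaled on its own. NRF2 state was visible in its targets: 14 of 15 measured in all lines exceeded their ABC-1 level in the 2 other lines without overlap, with list medians of 378, 722 and 32.2 CPM. Of 45 members, 22 exceeded their ABC-1 level in H460 and also in H2023 with no overlap of libraries, 4 lay below it in these lines and 19 did neither, beside 28.7% higher and 29.8% lower of 13267 genes. The median ratio to ABC-1 was 1.33 for H460 and 1.32 for H2023, against 0.922 and 1.06 over all genes. The members were thus more often higher in the NRF2-activated lines than genes at large, by values that are a description with no test, from tables scaled apart.

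All 3 catalytic genes were higher in both. For this and the other class counts here, 28.7% of all 13267 genes were higher in both lines and 29.8% lower. PSMB5 stood out, with 209.7 ± 6.47 (H460), 141 ± 3.02 (H2023) and 56.8 ± 2.07 CPM (ABC-1) (SD, n = 3), 3.69 and 2.47 times its ABC-1 level. PSMB7 was at 187 ± 11.7 (H460), 234 ± 11.0 (H2023) and 128 ± 5.90 CPM (ABC-1), and PSMB6 at 139 ± 4.59 (H460), 131 ± 4.63 (H2023) and 120.3 ± 3.19 CPM (ABC-1), where H460 and H2023 overlapped. In the core 8 of 14 were higher in both and none lower, namely PSMA1, PSMA2, PSMA5, PSMA6, PSMB3 and the catalytic genes. In the cap 8 of 17 were higher, including PSMD11, PSMD12, PSMD1 and PSMC5, and 2 were lower. The cap chaperones PSMD5, PSMD9 and PSMD10 were all higher, and none of the 4 core chaperones passed in either direction. PSMD10 (gankyrin) was at 52.7 ± 1.47 (H460), 37.7 ± 1.42 (H2023) and 24.9 ± 0.961 CPM (ABC-1). PSME2 was at 72.0 ± 0.474 (H460), 60.2 ± 2.03 (H2023) and 25.3 ± 1.69 CPM (ABC-1).

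The 4 members lower in both were PSMD2, PSMD13, PSME4 and PSMF1. PSMD2 was at 276 ± 9.00 (H460), 502 ± 4.51 (H2023) and 747 ± 22.0 CPM (ABC-1), so that the order of the lines was the reverse of that of PSMB5. PSMF1, the core regulator, was at 113 ± 3.78 (H460), 84.2 ± 3.14 (H2023) and 274 ± 1.16 CPM (ABC-1), and PSME4 at 119 ± 5.78 (H460), 106 ± 6.44 (H2023) and 216 ± 16.4 CPM (ABC-1), with overlap between H460 and H2023. Per kb, PSMD2 in ABC-1 was at 217 CPM and PSMB5 at 43.9, and in H460 they were at 79.9 and 162. PSMB8 was at 30.6 ± 0.780 CPM in H460 and 22.7 ± 1.03 in H2023, PSMB9 at 9.26 ± 0.507 (H460), 5.88 ± 0.782 (H2023) and 3.62 ± 0.688 CPM (ABC-1), and PSMB10 at 1.41 ± 0.30 (H460), 4.51 ± 0.760 (H2023) and 4.49 ± 0.539 CPM (ABC-1) on its gene row. With transcript rows added, PSMB10 was at 19.6, 12.2 and 6.81 CPM, so that H460 went from the lowest to the highest of the 3.

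**Figure D4:**
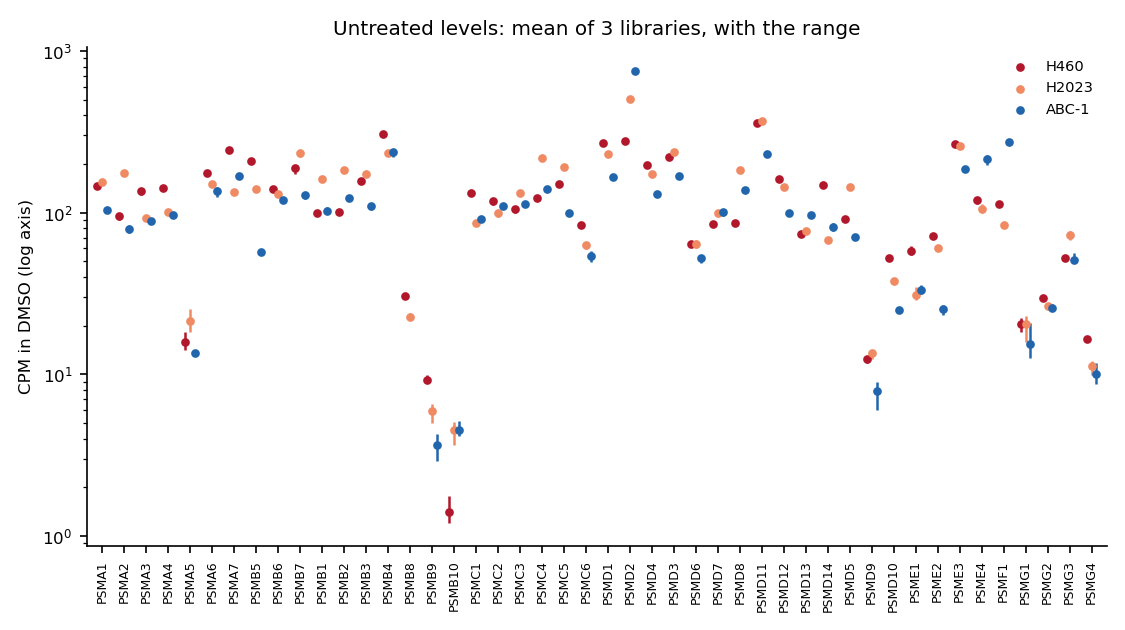
Mean CPM of each member (horizontal axis) in 3 untreated libraries of H460, H2023 and ABC-1 (vertical axis, logarithmic), with bars from the lowest to the highest library. PSMB5 lies highest in H460 and lowest in ABC-1, PSMD2, PSME4 and PSMF1 lie highest in ABC-1, and PSMB8, PSMB9 and PSMB10 lie below most other members.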

How the data were processed

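Total RNA of H460, H2023 and ABC-1 cells was extracted with Sepasol, made into libraries with an MGI directional kit and read as 150-base pairs on a DNBSEQ-G400RS, per the labels' protocols. The genome build was GRCh38, per the submitters' processing notes, and the aligner, the counter and the use of strand were not stated there (not given in the sources used here). The authors deposited 1 table per line of log2 values, each log2 of a scaled read count plus 4, as the values themselves show. Whole reads were recovered from the steps between low values (within 0.1 of a whole number up to 1000 reads) and turned into CPM. Each table was scaled on its own, so tests of treatment used the deposited values and levels between lines are CPM, side by side with no test. Treatment values are printed as normalised reads, 2 to the deposited value minus 4. Scaling by totals moved the median of all genes by 0.0731 (H460), 0.0417 (H2023) and 0.0719 (ABC-1). Between 9.19% and 10.7% of reads stood on rows named by transcript, which were left out of gene rows except where stated.

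Symbols came from a table of Ensembl IDs, coordinates and transcript lengths from GENCODE 29, and promoter windows from RefSeq (GRCh38.p14). Genes with at least 1 CPM in 3 of 6 libraries were tested with limma 3.58.1 (trend, R 4.3.3, two-sided) on 3 against 3 libraries, with Benjamini-Hochberg adjustment over all genes and a threshold of 0.05, and differences between lines in 1 fit over 18 libraries. Python 3.11.15 with pandas 2.3.3, numpy 2.4.6 and matplotlib 3.10.9 did the rest. The fit was tested on simulated data. Alternatives were other scalings, voom, filters, constants of 0.5 and 1 before the logarithm, 1 fit over all libraries, a replicate block, each library left out, and transcript rows added. Adding transcript rows to untreated levels and to immunoproteasome shares was chosen after seeing the data.

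Every PSM gene was eligible to be named, with NFE2L1, NFE2L2, KEAP1, EP300 and CREBBP, and, in each other list, up to 4 genes per line with the smallest p and those with the highest level. Members and lists were chosen with earlier results of these data known. Protein sequences were not used here, so no identity between members was computed. PSMB8 in ABC-1 was not analysed.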

Additional observations from a re-analysis of the deposited data

Results flagged for a closer look

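Responses to CCS1477 that differed between 2 lines in the test of the difference itself (limma over 18 libraries, adjusted p from 1.07e-05 to 0.0397) are given here as the log2 change in the first line minus that in the second. For H460 minus ABC-1 they were PSMA1 -0.43, PSMB5 -0.22, PSMB7 -0.27, PSMB9 -0.81, PSMC1 -0.29, PSMC4 -0.39, PSMC6 -0.27, PSMD1 -0.29, PSMD6 -0.41, PSMD11 -0.27, PSMD12 -0.34, PSMD14 -0.16, PSME3 -0.23, PSMF1 -0.28 and PSMG2 0.46. For H2023 minus ABC-1 they were PSMA1 -0.29, PSMA2 -0.42, PSMB5 -0.25, PSMB7 -0.31, PSMB2 -0.17, PSMB9 -0.56, PSMB10 0.92, PSMC4 -0.26, PSMD1 -0.22, PSMD2 -0.23, PSMD6 -0.30, PSMD7 0.28, PSMD11 -0.22, PSMD5 -0.18, PSMD10 -0.21, PSME3 -0.26, PSMF1 -0.14 and PSMG2 0.40. For H460 minus H2023 they were PSMC1 -0.22, PSMD12 -0.20, PSMD5 0.16 and PSMF1 -0.14.

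Most values against ABC-1 are negative, so that the response of these genes lay lower in the NRF2-activated lines than in ABC-1, and PSMG2 is the exception shared by both comparisons, which use the same ABC-1 libraries. Of the calls, 12 of 15 for H460 minus ABC-1, 12 of 18 for H2023 minus ABC-1 and 1 of 4 for H460 minus H2023 were past the threshold under every alternative. The difference of PSMB10 in H2023 minus ABC-1 reached an adjusted p of 0.376 under 1 of them. NRF2 state, histology and cell line cannot be told apart as sources of these differences.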

How the results depend on the processing

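No member that passed the test in a line changed sign under any alternative, and 21 of 25 (H460), 21 of 28 (H2023) and 23 of 26 calls (ABC-1) were past the threshold under every alternative. Scaling by library totals raised the genes called higher to 4636 of 13516 in H460 and 5183 of 13543 in ABC-1. Among members it gave 9 higher in H460 and 25 in ABC-1. For the differences it gave 3 higher in H460 minus H2023 and 2 higher in H460 minus ABC-1. It moved median log2 changes of the cap to 0.0251 (H460), 0.0775 (H2023) and 0.1718 (ABC-1), and of the core to -0.0941 in H460 and 0.1044 in ABC-1. Scaling by relative log expression gave 2 higher and 6 lower in H460 minus H2023 and 2 higher in H460 minus ABC-1. limma-voom gave 4 higher in H460 minus H2023. Requiring 1 CPM in all libraries, which left out PSMB10 in H460, gave an H460 immunoproteasome median of -0.4390 and 2 members higher in H460 minus H2023. Adding transcript rows gave 2 higher in H460 minus H2023 and in H460 minus ABC-1, and immunoproteasome medians of -0.2476 in H460 and 0.0835 in ABC-1, where the sign turned, and core medians of -0.0842 in H460 and 0.0867 in ABC-1. In 1 fit over 18 libraries, which has no PSMB8, immunoproteasome medians were -0.5238 in H460 and -0.1431 in H2023. Apart from these constructions, the cause was not tested.

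Leaving out each library in turn gave 3 to 5 members higher and 19 to 23 lower in H460, 6 to 12 and 16 to 18 in H2023, and 14 to 17 and 9 to 11 in ABC-1. In H2023 the number higher was 7 without DMSO replicate 1, 6 without CCS1477 replicate 2 and 7 without CCS1477 replicate 3. H460 minus ABC-1 had 1 to 4 higher (4 without ABC-1 DMSO replicate 3, 2 without ABC-1 CCS1477 replicate 1) and 11 to 21 lower, and H2023 minus ABC-1 had 2 to 3 and 10 to 15. H460 minus H2023 had 1 to 3 higher (2 without H460 DMSO replicate 3, 3 without H460 CCS1477 replicate 2, 2 without H2023 CCS1477 replicate 3) and 2 to 5 lower (5 without H2023 CCS1477 replicate 1). Cap medians ranged from -0.0688 to -0.0353 (H460), 0.0046 to 0.0487 (H2023) and 0.0731 to 0.1412 (ABC-1). Core medians ranged from -0.1832 to -0.0739, -0.2274 to -0.1292 and -0.0010 to 0.0736 in the same order, and immunoproteasome medians from -0.8115 to -0.6719, -0.5708 to -0.3416 and -0.4518 to -0.1985. The H460 core median was -0.0739 without CCS1477 replicate 2 and -0.1051 without CCS1477 replicate 3. The H2023 cap median was 0.0153 without DMSO replicate 2, 0.0487 without CCS1477 replicate 1 and 0.0046 without CCS1477 replicate 3. In ABC-1 the core median was 0.0736 without DMSO replicate 2, -0.0010 without DMSO replicate 3 and 0.0238 without CCS1477 replicate 3, the cap median was 0.0731 without DMSO replicate 3, and the immunoproteasome median was -0.1985 without CCS1477 replicate 2. Between 22 and 24 untreated members were higher in both NRF2-activated lines, and 4 were lower.

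With replicate number as a block, 4 members were higher and 20 lower in H460, 11 and 16 in H2023, and 16 and 10 in ABC-1. The differences had 1 higher and 2 lower for H460 minus H2023, 1 and 12 for H460 minus ABC-1, and 3 and 12 for H2023 minus ABC-1. Whether the numbers pair the libraries is not known. Correlations of deviations between same-numbered libraries were small, from -0.104 to 0.0973, and do not settle it. Every H2023 library correlated best with its own number, as a hint from the data only. In H460 not every library did. In ABC-1 the hint was reversed: each library correlated lowest with its own number, at -0.104, -0.0433 and -0.0709. Depth limits the genes with few reads most, PSMB9 and PSMB10.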

Other observations

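The NRF2 target genes, used above to show NRF2 state in untreated cells, split after CCS1477 in each line. In H460, 6 of 17 rose and 9 fell, in H2023, 6 of 17 rose and 7 fell, and in ABC-1, 7 of 14 rose and 5 fell, beside 28.2% higher and 27.9% lower among all genes of H460, 28.6% and 31.9% in H2023 and 33.5% and 32.6% in ABC-1. The aldo-keto reductase genes AKR1C2 and AKR1C3 fell in all 3 lines, AKR1C2 by log2 changes of -1.84 (H460, adjusted p = 1.72e-07), -1.37 (H2023, adjusted p = 2.83e-10) and -3.10 (ABC-1, adjusted p = 7.48e-08) and AKR1C3 by -1.71 (H460, adjusted p = 2.05e-07), -1.21 (H2023, adjusted p = 3.98e-10) and -2.80 (ABC-1, adjusted p = 1.88e-09). The thioredoxin reductase gene TXNRD1 rose in all 3, 0.52 (H460, adjusted p = 5.2e-05), 0.49 (H2023, adjusted p = 7.23e-07) and 1.39 (ABC-1, adjusted p = 1.79e-10), as did SRXN1, which in ABC-1 changed by 1.23. NFE2L2, which encodes NRF2, was at -0.082 (adjusted p = 0.192) in H460, fell in H2023, -0.31 (adjusted p = 0.000177), and rose in ABC-1, 0.26 (adjusted p = 0.00146). KEAP1, its inhibitor, fell in all 3, -0.20 (H460), -0.32 (H2023) and -0.45 (ABC-1). Of the drug's targets, EP300 rose in H460, 0.29 (adjusted p = 0.000987), and was at 0.10 and -0.037 in H2023 and ABC-1, and CREBBP passed in none.

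Of the lung and epithelial markers, 1 of 5 tested rose in H460, 7 of 7 fell in H2023, and 3 of 9 rose and 4 fell in ABC-1. All genes were 28.2% higher and 27.9% lower in H460, 28.6% and 31.9% in H2023, and 33.5% and 32.6% in ABC-1. The number higher in ABC-1 lies near that share. In H2023 the adhesion gene CDH1 changed by -2.56 (adjusted p = 2.4e-09) and the keratin gene KRT7 by -1.42 (adjusted p = 7.03e-10). In ABC-1 SOX2 changed by -1.22 (adjusted p = 7.92e-10), and KRT7, TP63 and NKX2-1 were also lower. There KRT8 rose by 0.45 (adjusted p = 5.32e-06), and KRT18 and CDH1 were also higher. Of the markers of other cell types, 3 of 3 tested fell in H460, none of 2 passed in H2023, and 1 rose and 1 fell in ABC-1, COL1A1 by 1.52 (adjusted p = 6.13e-08).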
